A study of Mus musculus with 12 samples.

Results

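Interleukins and the ligands of the tumour necrosis factor (TNF) family are signalling proteins by which cells call up, shape or end inflammation, and each acts through its own membrane receptors. Their genes were examined here by RNA-seq in cochlear glial cells of the mouse, before and after culture in media meant to turn the glia into neurons. Members were chosen by a rule on the symbol, which was set with earlier results of these data known. It took Tnf, and every gene named Il, Tnfsf or Tnfrsf followed by a number and, where present, further letters. Il6st and Il31ra were left out. Of the 55487 genes in the table, 115 matched, under 113 symbols, because Il11ra2 stands in 3 rows. A pair of the matches, the enzyme gene Il4i1 and the antisense RNA Il1bos, are neither cytokines nor receptors. Of the 115 members, 60 reached 1 TPM (a measure of RNA level corrected for transcript length and library size) in at least 3 libraries and were tested, 47 lay under that limit but above 0 in some library, and 8 were listed at 0 in every library.

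The study asked how far small molecules bring cochlear glia towards neurons, and it sequenced 4 groups with 3 libraries each. All cells came from spiral ganglia of postnatal day 4 mice of both sexes on a mixed C57Bl6 and FVB/N background, pooled over several animals and expanded as floating spheres in DMEM/F12 with EGF (20 ng/ml), bFGF (10 ng/ml), IGF (50 ng/ml) and heparan sulfate. The spheres group was taken at that stage. The other 3 groups were plated and kept for 14 days. SCDM was DMEM/F12 with the neurotrophins BDNF and NT3 (50 ng/ml each), and SCDM/FGF was the same with bFGF at 100 ng/ml. FIBCL was Neurobasal medium with Forskolin (20 μM, which raises cAMP), ISX9 (20 μM, a neurogenic compound), I-BET (1 μM, which blocks BET bromodomain proteins), CHIR99021 (10 μM, which inhibits the kinase GSK3), LIF (1000 U/ml, a cytokine of the IL-6 family) and bFGF, which the labels list at both 50 and 100 ng/ml. Base medium, neurotrophins, LIF and small molecules therefore changed together between FIBCL and the control media, and bFGF as well between FIBCL and SCDM, so that their parts cannot be told apart. The table names the FIBCL columns FIBC, a name that leaves out the L for LIF. LIF in these libraries therefore rests on the labels and on the study's own description, which calls the sequenced neurons FIBCL.

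Interleukins fall into families that share receptor chains. Cytokines of the IL-1 family bind paired receptors that signal through MyD88 and NF-kB, and a receptor antagonist, decoy receptors and binding proteins hold them in check. Cytokines of the IL-6 family use the chain encoded by Il6st, and those that use the common gamma chain, such as IL-15 and IL-21, signal through JAK and STAT proteins. TNF family ligands act as trimers on receptors that lead to NF-kB, to survival or, for those with a death domain, to cell death. In the cochlea these genes are best known from resident macrophages, fibrocytes and glia, which make inflammatory cytokines after noise or drug damage.

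Values below are scaled TPM, the deposited TPM rescaled so that the bulk of well expressed genes agrees between libraries. Differences are log2 fold changes on log2(scaled TPM + 1) with their standard error (SE), tested with limma, with p-values adjusted over all 16016 genes tested. A gene was called where its adjusted p was below 0.05 and its log2 fold change reached 1 in either direction, and only called genes are said here to rise, fall or be higher or lower. Each difference is followed by its SE and its adjusted p. The labels call the libraries biological replicates.

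The groups differed in the summed levels of markers of the cell types that such cultures could hold. The 17 macrophage markers summed to between 207.5 and 259.2 scaled TPM in the spheres, 2350.1 and 2576 in SCDM, 2581 and 2783 in SCDM/FGF, and 210.5 and 245.3 in FIBCL, and none of them was at 0 in any group. Most of the FIBCL sum was Cd68, a lysosomal protein gene, and without it the sums were 58.9 to 69.0 scaled TPM in FIBCL, 174 to 217 in the spheres and 2159 to 2546 in the control media. Of the 17, 15 were lower in FIBCL than in SCDM, 10 were lower and 1 (Cd68) was higher in FIBCL than in the spheres, and 16 were higher in SCDM than in the spheres. In SCDM/FGF against SCDM, 3 were lower (Adgre1, Aif1 and Cx3cr1) and 1 was higher (Mrc1). The 7 fibroblast markers summed to between 2481 and 2518 in the spheres, 5686 and 5948 in SCDM, 5206 and 5570.2 in SCDM/FGF, and only 30.4 and 33.7 in FIBCL. The 8 cochlear glia markers lay between 427 and 443 in the spheres, 162 and 186 in SCDM, 133 and 164 in SCDM/FGF, and 16.7 and 22.6 in FIBCL. The 10 neuron markers lay between 18.6 and 37.9 in the other groups and between 530.5 and 561.8 in FIBCL. The 6 neutrophil markers, of which 3 were at 0 in every group, summed to at least 45.5 outside FIBCL and at most 3.70 in FIBCL, and outside FIBCL most of this was Camp, without which the sums were at most 2.93 scaled TPM in FIBCL, 7.19 in SCDM/FGF, 0.742 in SCDM and 0.271 in the spheres. The 6 endothelial markers stayed between 8.64 and 43.1, while the T cell, B cell and mast cell lists (7, 5 and 6 genes) reached at most 23.8, 3.06 and 3.28. In such bulk libraries, fewer cells of a type and less RNA per cell cannot be told apart, and the part of these marker levels in the results was not tested.

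**Figure D1:**
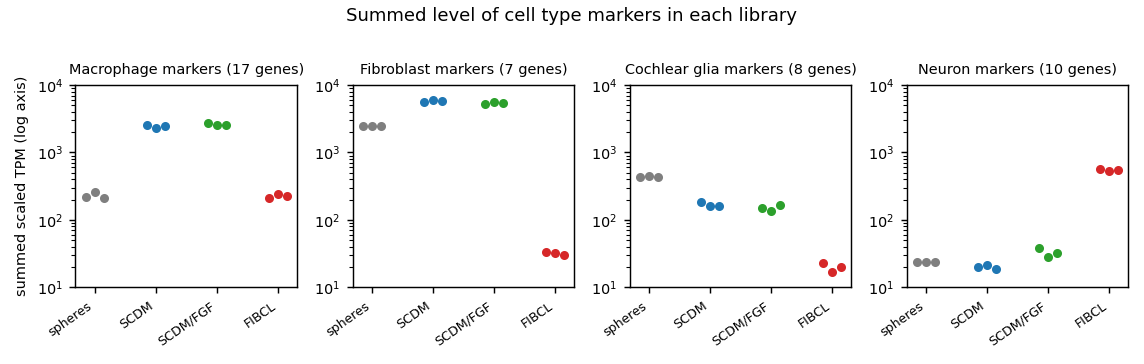
Summed scaled TPM of 4 lists of cell type markers in each of the 12 libraries, on a log axis, with 1 point per library and 1 panel per list. The macrophage sum is at least 2350.1 in both control media and at most 259.2 in the spheres and FIBCL, where Cd68 makes up most of the FIBCL sum, the fibroblast and glia sums are lowest in FIBCL, and the neuron sum is highest there.

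FIBCL differed from every other group in many members, in both directions. Against SCDM, 37 of the 60 tested members were called, 15 higher and 22 lower, where 29.3% of all genes tested were called (13.2% higher and 16.1% lower). Against SCDM/FGF, 39 were called, 9 higher and 30 lower, beside a background of 27.8% (12% higher and 15.8% lower). Against the spheres, 29 were called, 13 higher and 16 lower, beside 28.1% (12.5% higher and 15.5% lower). These 3 comparisons share the FIBCL libraries. The median log2 fold change of the tested members was -0.65, -1.0 and -0.16 in turn, against medians of all genes tested of -0.07, -0.05 and -0.06. Of the tested members, 31 had their lowest group mean in FIBCL and 15 their highest.

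The control media differed from the spheres too, with more members called higher than lower. SCDM differed from the spheres in 17 members (12 higher, 5 lower), beside a background of 12.4% (6.94% higher and 5.46% lower), and SCDM/FGF in 26 (23 higher, 3 lower), beside 12.1% (7.39% higher and 4.73% lower). The median log2 fold change of the members was -0.06 and 0.57 in turn (-0.01 and -0.02 over all genes). Adding bFGF to SCDM raised 17 members and lowered 1, where 9.77% of all genes were called (5.73% higher and 4.04% lower), with a median of 0.37 (-0.02 over all genes). The highest group mean stood in SCDM/FGF for 25 of the 60 members, in the spheres for 10 and in SCDM for 10. Of the tested members, 4 reached 1 TPM in libraries of a single group, through which they passed the limit on low values: Il12rb1 (spheres), Il18rap and Il1f10 (SCDM/FGF), and Tnfrsf9 (FIBCL).

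The picture changed with the size limit set aside. By adjusted p alone, 48 members differed between FIBCL and SCDM (background 71.7%), 52 between FIBCL and SCDM/FGF (70.7%) and 43 between FIBCL and the spheres (71.6%). The same limit gave 41 members between SCDM and the spheres (50.3%), 46 between SCDM/FGF and the spheres (50.4%) and 36 between SCDM/FGF and SCDM (43.1%). The libraries of FIBCL did not overlap with those of SCDM for 50 members (background 74.7%), with those of SCDM/FGF for 52 (72.9%) and with those of the spheres for 46 (75%). Members without overlap numbered 43 between SCDM and the spheres (58.6%), 46 between SCDM/FGF and the spheres (57%) and 39 between SCDM/FGF and SCDM (51.6%).

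**Figure D2:**
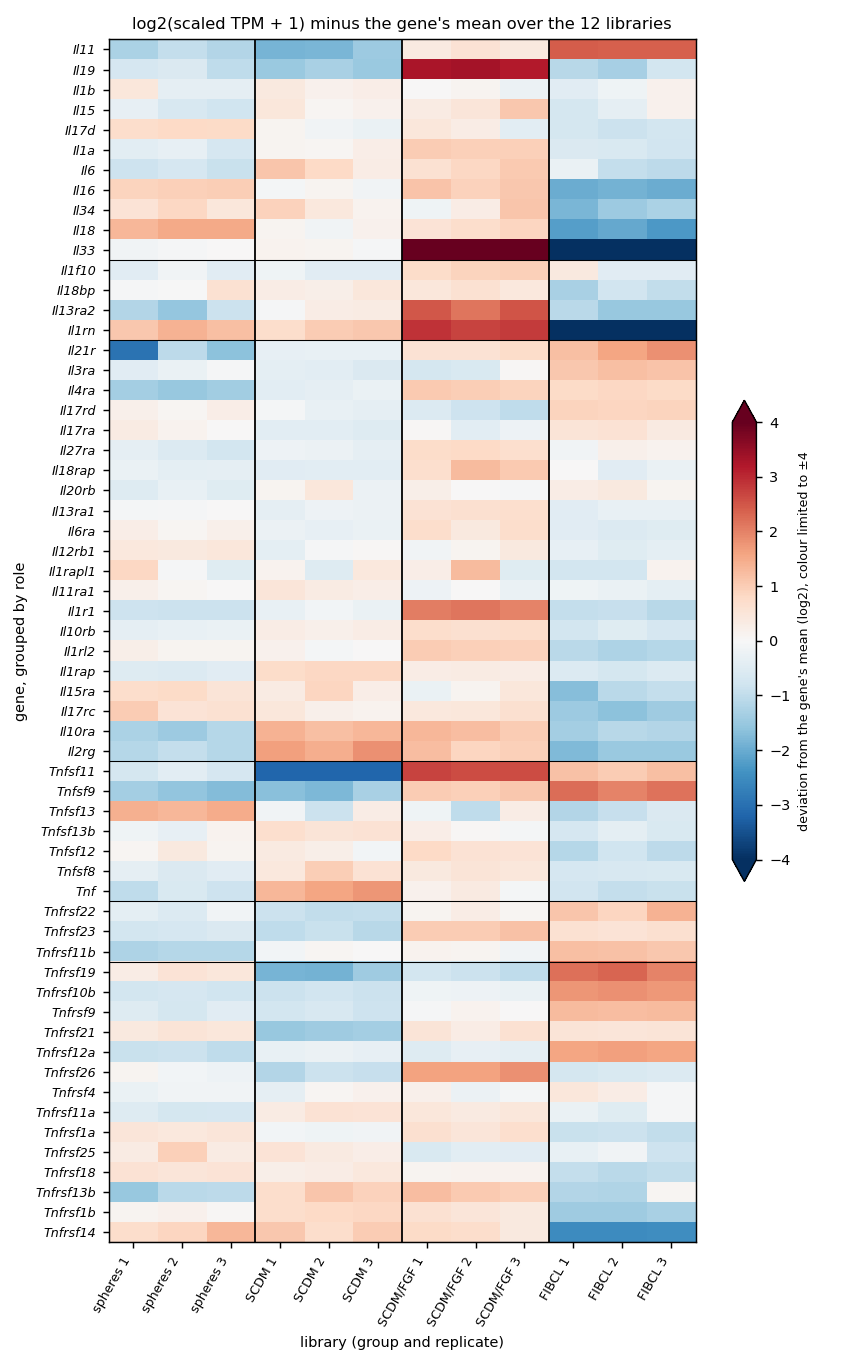
The 60 tested members in the 12 libraries as log2(scaled TPM + 1) minus each gene's mean, with rows grouped by role and colour limited to 4 in either direction. Il33 and Il1rn are at the lower colour limit in FIBCL and red in SCDM/FGF, Tnfsf11 is dark blue in SCDM, and Tnfrsf19, Tnfrsf10b and Tnfrsf12a are red in FIBCL.

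Promoter sequence was read for the members, and 6 windows are printed to show what stands before start sites. Of the 113 symbols, 89 had a start in the RefSeq promoter table (GRCm38.p6). The 250 bases before each start were searched on both strands for the AP-1 motif TGANTCA, the cAMP response element TGACGTCA and the NF-kB motif, which are motifs of factors that cAMP and cytokine receptors are known to act through. AP-1 matched in 19 of the 89 members (21.3%) and in 7.82% of all 27025 genes, or in 17.6% and 6.75% when start sites are counted in place of genes. The NF-kB motif matched in 9 members (10.1%, against 8.23%). The cAMP response element matched in 0 members, against 1.77% of all genes. The 6 windows printed here were picked with these values known. They run 5′ to 3′ on the gene's strand, end just before the start, and have motif matches in capitals, which are descriptions of letters and not of binding. Il33 and Il1rn are shown because they fell most in FIBCL, and Il11 and Tnfrsf9 because they rose there. Il19 is shown because it stood above 1 scaled TPM in SCDM/FGF alone, and Il6 because it holds an AP-1 and an NF-kB match. Of the 9 members higher in FIBCL than in both control media, 6 had a window, and only Il11 and Tnfrsf9 matched AP-1. Tnfrsf12a and Tnfrsf19, which also rose there, had no match, and neither had the upstream start of Il11. Of the 20 members lower in FIBCL than in both control media, 17 had a window and 5 matched AP-1.
Il33, chr19:29924863-29925112 (plus strand), no match: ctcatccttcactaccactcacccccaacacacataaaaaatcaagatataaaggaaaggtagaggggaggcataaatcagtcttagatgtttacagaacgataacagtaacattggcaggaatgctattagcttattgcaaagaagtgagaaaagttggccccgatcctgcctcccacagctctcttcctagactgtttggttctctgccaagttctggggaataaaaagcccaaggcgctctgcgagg
Il1rn, chr2:24336610-24336859 (plus strand), AP-1 at 141 to 135 bases before the start: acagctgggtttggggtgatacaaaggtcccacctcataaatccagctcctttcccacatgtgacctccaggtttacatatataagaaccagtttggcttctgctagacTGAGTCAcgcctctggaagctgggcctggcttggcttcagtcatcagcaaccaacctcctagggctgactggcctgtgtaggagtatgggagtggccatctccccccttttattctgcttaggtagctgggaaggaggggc
Il11, chr7:4778142-4778391 (minus strand), the downstream one of its 2 starts, AP-1 at 98 to 92 bases before it: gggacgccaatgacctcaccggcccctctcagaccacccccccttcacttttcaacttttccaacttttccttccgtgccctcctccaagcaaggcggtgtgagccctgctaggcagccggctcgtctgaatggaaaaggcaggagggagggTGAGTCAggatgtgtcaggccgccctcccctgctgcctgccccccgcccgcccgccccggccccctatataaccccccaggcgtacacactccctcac
Tnfrsf9, chr4:150927749-150927998 (plus strand), a start inside the gene, overlapping NF-kB matches from 43 to 33 and AP-1 at 15 to 9 bases before it: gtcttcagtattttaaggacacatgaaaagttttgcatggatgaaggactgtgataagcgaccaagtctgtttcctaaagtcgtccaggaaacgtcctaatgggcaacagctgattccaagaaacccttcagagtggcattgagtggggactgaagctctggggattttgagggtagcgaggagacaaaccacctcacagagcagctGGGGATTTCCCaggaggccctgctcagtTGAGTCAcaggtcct
Il19, chr1:130940116-130940365 (minus strand), NF-kB at 77 to 68 bases before the start: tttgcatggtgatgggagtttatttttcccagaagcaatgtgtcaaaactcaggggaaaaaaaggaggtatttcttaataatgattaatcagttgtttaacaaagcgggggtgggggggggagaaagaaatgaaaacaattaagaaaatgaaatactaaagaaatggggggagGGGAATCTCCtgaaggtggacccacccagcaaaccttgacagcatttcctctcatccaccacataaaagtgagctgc
Il6, chr5:30012864-30013113 (plus strand), AP-1 at 249 to 243 and NF-kB at 44 to 35 bases before the start: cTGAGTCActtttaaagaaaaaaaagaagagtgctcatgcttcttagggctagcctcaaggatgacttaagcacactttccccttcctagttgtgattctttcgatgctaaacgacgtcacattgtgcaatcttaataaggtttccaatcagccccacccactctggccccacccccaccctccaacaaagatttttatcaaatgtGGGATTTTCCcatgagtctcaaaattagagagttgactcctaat

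Among the 11 tested interleukin ligands, 1 was higher and 5 were lower in FIBCL than in SCDM, 1 was higher and 7 were lower than in SCDM/FGF, and 1 was higher and 5 were lower than in the spheres. These calls are 54.5%, 72.7% and 54.5% of them, where 29.3%, 27.8% and 28.1% of all genes were called. Of all genes, 13.2%, 12% and 12.5% were called higher. Il33 had the largest difference of any member in any of the 6 comparisons. It encodes an IL-1 family alarmin that is held in the nucleus and freed when cells are damaged, and it lies on chr19:29925114-29960718 (GRCm38, plus strand). Il33 stood at 60.9, 65.4 and 67.8 scaled TPM in the spheres, 74.2, 72.4 and 65.4 in SCDM, 1889.9, 2087 and 2435 in SCDM/FGF, and 1.14, 1.35 and 0.945 in FIBCL. Spheres and SCDM overlapped, every SCDM/FGF library lay far above them and every FIBCL library far below. Il33 was lower in FIBCL than in SCDM (log2 fold change -5.07 ± 0.10, limma adjusted p = 3.07e-12), SCDM/FGF (-9.96 ± 0.10, adjusted p = 1.82e-14) and the spheres (-4.94 ± 0.10, adjusted p = 4.18e-12). Adding bFGF to SCDM raised Il33 by 4.89 ± 0.10 (limma adjusted p = 3.64e-11), which is 30.2 times the SCDM group mean.

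Il18, another IL-1 family cytokine, is matured by caspase-1 and drives interferon production. Its levels were 13.6, 15.5 and 15.3 scaled TPM in the spheres, 5.17, 4.17 and 5.48 in SCDM, 7.37, 8.32 and 9.48 in SCDM/FGF, and 0.239, 0.381 and 0.171 in FIBCL. They were highest in the spheres and did not overlap with FIBCL, which was lower, with log2 fold changes of -2.23, -2.89 and -3.65 against SCDM, SCDM/FGF and the spheres (SE 0.12 each, limma adjusted p of at most 1.26e-08). Il18 was lower in SCDM than in the spheres as well (log2 fold change -1.42 ± 0.12, limma adjusted p = 1.86e-06). Il1a, which encodes the membrane-held form of IL-1, had 0.711, 0.838 and 0.445 scaled TPM in the spheres, 1.51, 1.44 and 1.78 in SCDM, 3.71, 3.44 and 3.48 in SCDM/FGF, and 0.538, 0.504 and 0.367 in FIBCL. Il1a was higher in SCDM/FGF than in the spheres (log2 fold change 1.46 ± 0.11, limma adjusted p = 9.55e-07) and lower in FIBCL than in SCDM/FGF (-1.63 ± 0.11, adjusted p = 1.22e-07), while its difference from SCDM (-0.81 ± 0.11) stayed under the limit of 1. Il1b, the inducible IL-1 gene, lay between 0.406 and 1.67 scaled TPM over all 12 libraries and was called in no comparison, and it overlaps the antisense gene Il1bos, from which its reads cannot be told apart without strand.

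Ligands of the IL-6 and IL-10 families each had a pattern of their own. Il11, a cytokine of the IL-6 family known from stromal and fibrotic tissue, lies on chr7:4772373-4782859 (GRCm38, minus strand) and was the sole interleukin ligand that rose in FIBCL. It stood at 1.45, 2.04 and 1.61 scaled TPM in the spheres, 0.609, 0.653 and 1.16 in SCDM, 6.49, 7.75 and 6.63 in SCDM/FGF, and 30.4, 29.8 and 29.9 in FIBCL. The FIBCL libraries agreed closely and lay above all others, and the SCDM/FGF libraries came next. Il11 was higher in FIBCL than in SCDM (log2 fold change 4.12 ± 0.13, limma adjusted p = 1.25e-10), SCDM/FGF (1.97 ± 0.13, adjusted p = 7.06e-08) and the spheres (3.53 ± 0.13, adjusted p = 4.87e-10), and bFGF raised it over SCDM (2.15 ± 0.13, adjusted p = 1.18e-07). Il6 itself, the acute inflammatory member, had 0.271, 0.419 and 0.218 scaled TPM in the spheres, 3.86, 2.95 and 1.81 in SCDM, 2.45, 3.05 and 3.66 in SCDM/FGF, and 0.908, 0.172 and 0.105 in FIBCL. Il6 was higher in SCDM (log2 fold change 1.54 ± 0.24, limma adjusted p = 0.000231) and SCDM/FGF (1.63 ± 0.24, adjusted p = 0.000154) than in the spheres and lower in FIBCL than in both, with log2 fold changes of -1.48 ± 0.24 and -1.57 ± 0.24 (limma adjusted p = 0.000154 and 0.000102).

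Il19, of the IL-10 family and known from macrophages and epithelia, lies on chr1:130932656-130940115 (GRCm38, minus strand). Its levels were 0.761, 0.891 and 0.403 scaled TPM in the spheres, 0, 0.140 and 0 in SCDM, 26.2, 27.2 and 24.5 in SCDM/FGF, and 0.311, 0.123 and 0.682 in FIBCL. It was above 1 scaled TPM in the SCDM/FGF libraries alone, all of which exceeded 24. Il19 was higher in SCDM/FGF than in SCDM (log2 fold change 4.69 ± 0.16, limma adjusted p = 1.31e-09) and the spheres (4.01 ± 0.16, adjusted p = 4.36e-09), and lower in FIBCL than in SCDM/FGF (-4.32 ± 0.16, adjusted p = 5.09e-10). Against SCDM, where 2 libraries list it at 0, the FIBCL difference of 0.37 was not called (limma adjusted p = 0.0525), and it was 1.63 and called with a pseudocount of 0.1 in place of 1. Its neighbours Il20 and Il24 were listed at 0 in every library, and Il10, the anti-inflammatory member of the same cluster, reached at most 0.920 scaled TPM.

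**Figure D3:**
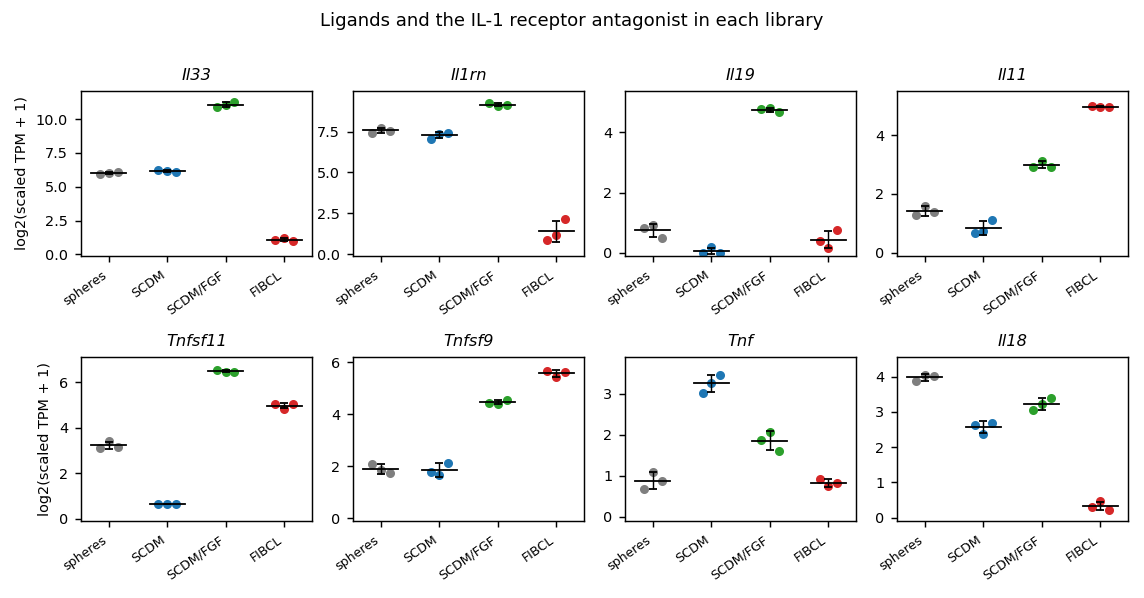
Ligands and the IL-1 receptor antagonist in the 12 libraries on the log2(scaled TPM + 1) scale, with 1 point per library, the group mean as a line and the SD (n = 3) as a bar. Il33, Il1rn and Il18 are lowest in FIBCL, Il11 and Tnfsf9 highest there, Il33, Il1rn, Il19 and Tnfsf11 highest in SCDM/FGF, and Tnf highest in SCDM.

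Il16 and Il34 fell in FIBCL against each of the other groups. Il16 encodes a chemoattractant for cells that carry CD4 and had 7.55, 7.95 and 7.96 scaled TPM in the spheres, 3.31, 3.96 and 3.19 in SCDM, 9.17, 7.62 and 8.58 in SCDM/FGF, and 0.155, 0.221 and 0.157 in FIBCL. All FIBCL libraries lay under 0.3, with log2 fold changes of -1.93, -3.00 and -2.90 against SCDM, SCDM/FGF and the spheres (SE 0.10 each, limma adjusted p of at most 6.94e-09). bFGF raised it over SCDM (log2 fold change 1.08 ± 0.10, limma adjusted p = 3.59e-06). Il34 encodes the second ligand of Csf1r, the growth factor receptor of macrophages, and had 6.01, 7.46 and 5.53 scaled TPM in the spheres, 8.17, 5.39 and 4.24 in SCDM, 3.23, 4.91 and 9.38 in SCDM/FGF, and 0.358, 0.763 and 0.971 in FIBCL. The 3 other groups overlapped, while FIBCL lay below them all, with log2 fold changes of -2.01, -1.93 and -2.12 (SE 0.30 each, limma adjusted p of at most 0.000143). The falls of Il34 against SCDM and against the spheres differed by less than their SE. Of the 17 macrophage markers 15 were lower in FIBCL than in SCDM, and 10 were lower and 1 higher than in the spheres. All 7 fibroblast markers were lower in FIBCL than in SCDM and the spheres, as were 7 and 8 of the 8 cochlear glia markers. The part of these cell types in the falls of Il16 and Il34 was not tested.

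Il15 and Il17d were each called in a single comparison. Il15, a survival factor of lymphocytes, had 1.27, 0.856 and 0.646 scaled TPM in the spheres, 2.91, 2.01 and 2.22 in SCDM, 2.62, 3.05 and 5.09 in SCDM/FGF, and 0.777, 1.25 and 2.24 in FIBCL. Il15 was higher in SCDM/FGF than in the spheres (log2 fold change 1.23 ± 0.24, limma adjusted p = 0.00147), and SCDM/FGF replicate 3 was the highest library. Without rescaling or with a pseudocount of 0.1, Il15 was also called lower in FIBCL than in SCDM/FGF (-1.10 and -1.33). Il17d, an IL-17 family member made outside the immune system, had 4.86, 5.38 and 5.23 scaled TPM in the spheres, 2.900, 2.304 and 2.01 in SCDM, 4.01, 3.47 and 1.73 in SCDM/FGF, and 1.23, 0.996 and 1.17 in FIBCL. Il17d was lower in FIBCL than in the spheres (log2 fold change -1.53 ± 0.20, limma adjusted p = 2.52e-05) and not called in the other 5 comparisons. In the same 2 settings it was called lower in FIBCL than in SCDM/FGF as well (-1.05 and -1.29).

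The antagonists and binding proteins among the interleukin genes were lower in FIBCL in most cases: 3 of the 4 tested against SCDM, 4 of 4 against SCDM/FGF and 2 of 4 against the spheres, with 0 higher. Of all genes, 16.1%, 15.8% and 15.5% were called lower in these comparisons. The 4 lower than in SCDM/FGF include Il1f10, which passed the limit on low values through SCDM/FGF alone. A lower level of Il1f10 in FIBCL than there was thus built into its choice. Il1rn encodes the IL-1 receptor antagonist, which occupies the receptor without signalling, and lies on chr2:24336853-24351494 (GRCm38, plus strand). It stood at 169.5, 213 and 186 scaled TPM in the spheres, 132, 165 and 171 in SCDM, 605, 530.0 and 568 in SCDM/FGF, and 0.836, 1.24 and 3.35 in FIBCL. Spheres and SCDM overlapped, SCDM/FGF was above both, and FIBCL held at most 3.35. Il1rn was lower in FIBCL than in SCDM (log2 fold change -5.90 ± 0.25, limma adjusted p = 1.72e-09), SCDM/FGF (-7.76 ± 0.25, adjusted p = 1.81e-10) and the spheres (-6.18 ± 0.25, adjusted p = 1.25e-09), and bFGF raised it over SCDM (1.87 ± 0.25, adjusted p = 9.52e-05).

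Il13ra2, a decoy receptor that binds IL-13, had 0.364, 0.0524 and 0.705 scaled TPM in the spheres, 1.96, 2.799 and 2.85 in SCDM, 16.3, 12.5 and 16.7 in SCDM/FGF, and 0.454, 0.0738 and 0.0787 in FIBCL. It rose from the spheres to SCDM (log2 fold change 1.38 ± 0.20, limma adjusted p = 0.000139) and again with bFGF (2.19 ± 0.20, adjusted p = 4.12e-06), and it was lower in FIBCL than in SCDM (-1.56 ± 0.20, adjusted p = 2.43e-05) and SCDM/FGF (-3.75 ± 0.20, adjusted p = 1.26e-08), while FIBCL and the spheres overlapped. Il18bp, which captures IL-18 in solution, had 2.43, 2.49 and 4.405 scaled TPM in the spheres, 3.35, 3.12 and 3.83 in SCDM, 3.81, 4.42 and 3.695 in SCDM/FGF, and 0.442, 1.06 and 0.787 in FIBCL. Il18bp was lower in FIBCL than in SCDM (log2 fold change -1.34 ± 0.18, limma adjusted p = 4.39e-05), SCDM/FGF (-1.51 ± 0.18, adjusted p = 1.76e-05) and the spheres (-1.20 ± 0.18, adjusted p = 0.000113), the last of which was not called without spheres replicate 3 (-0.99). Il1f10, an IL-1 family cytokine described as an antagonist, had 0, 0.218 and 0 scaled TPM in the spheres, 0.209, 0 and 0 in SCDM, 1.24, 1.52 and 1.604 in SCDM/FGF, and 0.765, 0 and 0 in FIBCL. It was above 1 in SCDM/FGF alone and was called there against SCDM (log2 fold change 1.20 ± 0.21, limma adjusted p = 0.000612) and the spheres (1.20 ± 0.21, adjusted p = 0.000529), and its call in FIBCL against SCDM/FGF (-1.02) was lost without any of 4 libraries (SCDM/FGF replicates 2 and 3, FIBCL replicates 2 and 3).

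Of the 21 tested interleukin receptor genes, 4 were higher and 6 lower in FIBCL than in SCDM, 2 higher and 9 lower than in SCDM/FGF, and 3 higher and 3 lower than in the spheres. That is 47.6%, 52.4% and 28.6% of them, where 29.3%, 27.8% and 28.1% of all genes were called, so that the last share was at the background. The 9 lower than in SCDM/FGF include Il18rap, which passed the limit on low values through SCDM/FGF alone, so that this direction was built into its choice. Receptors of the IL-1 family were among the lower ones. Il1r1, the signalling receptor of IL-1, had 3.69, 3.54 and 3.59 scaled TPM in the spheres, 5.82, 6.76 and 5.99 in SCDM, 33.2, 35.4 and 32.3 in SCDM/FGF, and 3.31, 3.37 and 2.89 in FIBCL. Every SCDM/FGF library exceeded 32, and no other library reached 7. Il1r1 was higher in SCDM/FGF than in SCDM (log2 fold change 2.27 ± 0.079, limma adjusted p = 1.65e-09) and the spheres (2.91 ± 0.079, adjusted p = 3.02e-10), and lower in FIBCL than in SCDM/FGF (-3.05 ± 0.079, adjusted p = 3.44e-11). Its difference between FIBCL and SCDM was -0.78 and not called, but -1.09 and called without rescaling. Il1rap, the accessory chain that IL-1 and IL-33 receptors share, had 16.8, 16.3 and 17.7 scaled TPM in the spheres, 41.2, 44.1 and 44.6 in SCDM, 30.5, 30.9 and 30.4 in SCDM/FGF, and 16.5, 14.6 and 16.6 in FIBCL. Il1rap was higher in SCDM than in the spheres (log2 fold change 1.30 ± 0.059, limma adjusted p = 1.28e-08) and lower in FIBCL than in SCDM (-1.39 ± 0.059, adjusted p = 1.72e-09), and FIBCL and the spheres overlapped.

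Il1rl2, the receptor of the IL-36 cytokines, had 3.67, 3.35 and 3.33 scaled TPM in the spheres, 3.45, 2.77 and 3.07 in SCDM, 7.05, 6.75 and 6.56 in SCDM/FGF, and 0.872, 0.713 and 0.814 in FIBCL. FIBCL lay below all other libraries, with log2 fold changes of -1.18, -2.11 and -1.31 against SCDM, SCDM/FGF and the spheres (SE 0.090 each). Il18rap, the accessory chain of the IL-18 receptor, had 0.152, 0.0524 and 0.0671 scaled TPM in the spheres, 0, 0.0280 and 0.0189 in SCDM, 1.204, 2.33 and 1.85 in SCDM/FGF, and 0.394, 0 and 0.131 in FIBCL. It exceeded 1 in SCDM/FGF alone, where it was higher than in SCDM (log2 fold change 1.44 ± 0.16, limma adjusted p = 2.28e-05) and the spheres (1.34 ± 0.16, adjusted p = 3.56e-05), and it was lower in FIBCL than there (-1.24 ± 0.16, adjusted p = 2.93e-05). Il1rl1, which encodes the receptor of IL-33, did not reach the limit on low values: its highest library was SCDM/FGF replicate 2 at 2.03 scaled TPM, and the other libraries of that group had 0.861 and 0.487. It was the highest of the 55 members that were not tested.

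Receptors that use the common gamma chain or IL-4 signalling split between the groups. Il2rg, the common gamma chain itself, had 2.698, 3.25 and 2.68 scaled TPM in the spheres, 24.7, 21.6 and 28.1 in SCDM, 18.4, 13.8 and 14.8 in SCDM/FGF, and 1.398, 1.94 and 1.903 in FIBCL. Every library of both control media lay above every library of the spheres and FIBCL. Il2rg was higher in SCDM (log2 fold change 2.73 ± 0.13, limma adjusted p = 2.13e-08) and SCDM/FGF (2.10 ± 0.13, adjusted p = 1.94e-07) than in the spheres, and lower in FIBCL than in SCDM (-3.23 ± 0.13, adjusted p = 1.32e-09) and SCDM/FGF (-2.60 ± 0.13, adjusted p = 9.06e-09). Il21r, which pairs with it to bind IL-21, went the other way in FIBCL, with 0.338, 4.03 and 2.299 scaled TPM in the spheres, 7.29, 7.43 and 7.43 in SCDM, 14.5, 14.4 and 16.2 in SCDM/FGF, and 22.6, 29.97 and 35.98 in FIBCL. Il21r was higher in FIBCL than in SCDM (log2 fold change 1.84 ± 0.37, limma adjusted p = 0.000797) and the spheres (3.42 ± 0.37, adjusted p = 5.86e-06). It was also higher in SCDM than in the spheres (log2 fold change 1.58 ± 0.37, limma adjusted p = 0.00391), a difference of 1.04 (limma adjusted p = 0.00156) without spheres replicate 1, the lowest library. Il4ra, the shared chain of IL-4 and IL-13 receptors and the neighbour of Il21r on chromosome 7, had 11.4, 10.2 and 11.04 scaled TPM in the spheres, 22.9, 24.1 and 25.7 in SCDM, 64.6, 62.4 and 58.6 in SCDM/FGF, and 53.5, 55.4 and 53.5 in FIBCL. Il4ra was higher in SCDM than in the spheres (log2 fold change 1.09 ± 0.058, limma adjusted p = 4.59e-08), higher again in SCDM/FGF (1.32 ± 0.058, adjusted p = 1.04e-08), and higher in FIBCL than in SCDM (1.13 ± 0.058, adjusted p = 9.12e-09) and the spheres (2.22 ± 0.058, adjusted p = 3.79e-11). Without rescaling the differences of FIBCL from SCDM and of SCDM from the spheres were 0.74 and 0.96 and were not called.

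Il15ra, which presents IL-15 to neighbouring cells, had 13.4, 14.05 and 11.8 scaled TPM in the spheres, 10.3, 15.1 and 9.65 in SCDM, 6.499, 8.63 and 11.2 in SCDM/FGF, and 1.76, 3.26 and 3.595 in FIBCL. It fell in FIBCL against SCDM (log2 fold change -1.72 ± 0.23, limma adjusted p = 3.47e-05), SCDM/FGF (-1.34 ± 0.23, adjusted p = 0.000264) and the spheres (-1.90 ± 0.23, adjusted p = 1.62e-05), with no overlap. Il13ra1, the partner of Il4ra, had 52.1, 53.00 and 55.7 scaled TPM in the spheres, 42.3, 47.7 and 46.6 in SCDM, 82.3, 86.03 and 86.8 in SCDM/FGF, and 39.3, 44.5 and 44.02 in FIBCL. No comparison called it, the nearest being FIBCL against SCDM/FGF at -0.98 ± 0.060. That difference was -1.29 and called without rescaling. It was -1.01 and called without SCDM/FGF replicate 1, FIBCL replicate 2 or FIBCL replicate 3. Il3ra, the IL-3 receptor chain, had 13.9, 16.05 and 18.8 scaled TPM in the spheres, 14.8, 14.3 and 12.8 in SCDM, 11.6, 12.5 and 20.4 in SCDM/FGF, and 42.5, 46.9 and 44.6 in FIBCL. Il3ra was higher in FIBCL than in SCDM (log2 fold change 1.61 ± 0.17, limma adjusted p = 5.56e-06), SCDM/FGF (1.57 ± 0.17, adjusted p = 7.45e-06) and the spheres (1.41 ± 0.17, adjusted p = 1.8e-05), the last of which was 0.89 and not called without rescaling. Its ligand gene Il3 was listed at 0 in every library.

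The receptors of IL-10 and of the IL-6 family differed from each other. Il10ra, the ligand-binding chain of the IL-10 receptor and typical of leukocytes, had 0.474, 0.297 and 0.638 scaled TPM in the spheres, 8.29, 7.25 and 8.003 in SCDM, 8.02, 7.49 and 6.29 in SCDM/FGF, and 0.382, 0.676 and 0.590 in FIBCL. Il10ra was higher in SCDM (log2 fold change 2.59 ± 0.12, limma adjusted p = 1.91e-08) and SCDM/FGF (2.49 ± 0.12, adjusted p = 2.88e-08) than in the spheres and lower in FIBCL than in SCDM (-2.52 ± 0.12, adjusted p = 6.41e-09) and SCDM/FGF (-2.41 ± 0.12, adjusted p = 9.75e-09), and FIBCL and the spheres overlapped. Il10rb, the widely expressed second chain, had 28.2, 29.99 and 30.5 scaled TPM in the spheres, 45.7, 42.3 and 45.6 in SCDM, 60.04, 57.6 and 60.4 in SCDM/FGF, and 21.6, 26.00 and 22.9 in FIBCL. Its sole call was a lower level in FIBCL than in SCDM/FGF (log2 fold change -1.30 ± 0.065, limma adjusted p = 7.52e-09), and without rescaling it was called against SCDM too (-1.28). Il11ra1, the receptor of IL-11, had 78.4, 72.2 and 68.8 scaled TPM in the spheres, 96.1, 86.2 and 82.5 in SCDM, 59.4, 68.8 and 56.7 in SCDM/FGF, and 60.7, 56.9 and 51.8 in FIBCL. No comparison called it, while Il11 itself rose in FIBCL, though without rescaling it was called lower in FIBCL than in SCDM (-1.03). Il11ra1 is near-identical to Il11ra2, and reads may be split between them. Il6ra, the receptor of IL-6, had 7.19, 6.07 and 6.85 scaled TPM in the spheres, 4.73, 4.35 and 4.596 in SCDM, 10.02, 7.86 and 9.98 in SCDM/FGF, and 3.94, 3.64 and 3.83 in FIBCL, with a call in FIBCL against SCDM/FGF alone (log2 fold change -1.09 ± 0.10, limma adjusted p = 1.47e-06). Without rescaling Il6ra was also called lower in FIBCL than in the spheres (-1.12). Il27ra, the receptor of IL-27, had 3.502, 2.93 and 2.47 scaled TPM in the spheres, 3.98, 3.89 and 3.54 in SCDM, 8.69, 9.12 and 8.16 in SCDM/FGF, and 4.28, 5.67 and 5.41 in FIBCL. Il27ra was higher in SCDM/FGF than in the spheres (log2 fold change 1.29 ± 0.12, limma adjusted p = 3.82e-06) and than in SCDM (1.01 ± 0.12, adjusted p = 3.24e-05), the latter 0.97 and not called without SCDM replicate 3 or SCDM/FGF replicate 2, and 0.94 without rescaling.

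The IL-17 receptor genes divided in FIBCL. Il17rc, a chain of the receptor for IL-17, had 35.8, 25.7 and 26.5 scaled TPM in the spheres, 23.9, 19.7 and 18.95 in SCDM, 23.5, 23.9 and 27.5 in SCDM/FGF, and 5.69, 4.78 and 5.800 in FIBCL. Il17rc was lower in FIBCL than in SCDM (log2 fold change -1.76 ± 0.13, limma adjusted p = 2.26e-07), SCDM/FGF (-2.01 ± 0.13, adjusted p = 7.61e-08) and the spheres (-2.23 ± 0.13, adjusted p = 3.25e-08). Il17rd, which is also known as an inhibitor of FGF signalling, had 6.45, 5.84 and 6.83 scaled TPM in the spheres, 5.15, 4.300 and 4.07 in SCDM, 3.51, 2.696 and 2.203 in SCDM/FGF, and 11.1, 10.8 and 11.02 in FIBCL. Il17rd was higher in FIBCL than in SCDM (log2 fold change 1.13 ± 0.12, limma adjusted p = 7.06e-06) and SCDM/FGF (1.67 ± 0.12, adjusted p = 2.42e-07), the former 0.77 and not called without rescaling. Il17ra, the shared chain, had 13.2, 11.2 and 10.4 scaled TPM in the spheres, 7.28, 7.43 and 6.86 in SCDM, 10.6, 7.37 and 8.73 in SCDM/FGF, and 14.9, 15.9 and 13.4 in FIBCL. No comparison called it, and its difference between FIBCL and SCDM was 0.94 ± 0.12 (1.02 and called with a pseudocount of 0.1). The other tested interleukin receptors called in no comparison were Il12rb1 (at most 1.02 scaled TPM in any library), Il1rapl1 (at most 2.98) and Il20rb (at most 1.595).

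**Figure D4:**
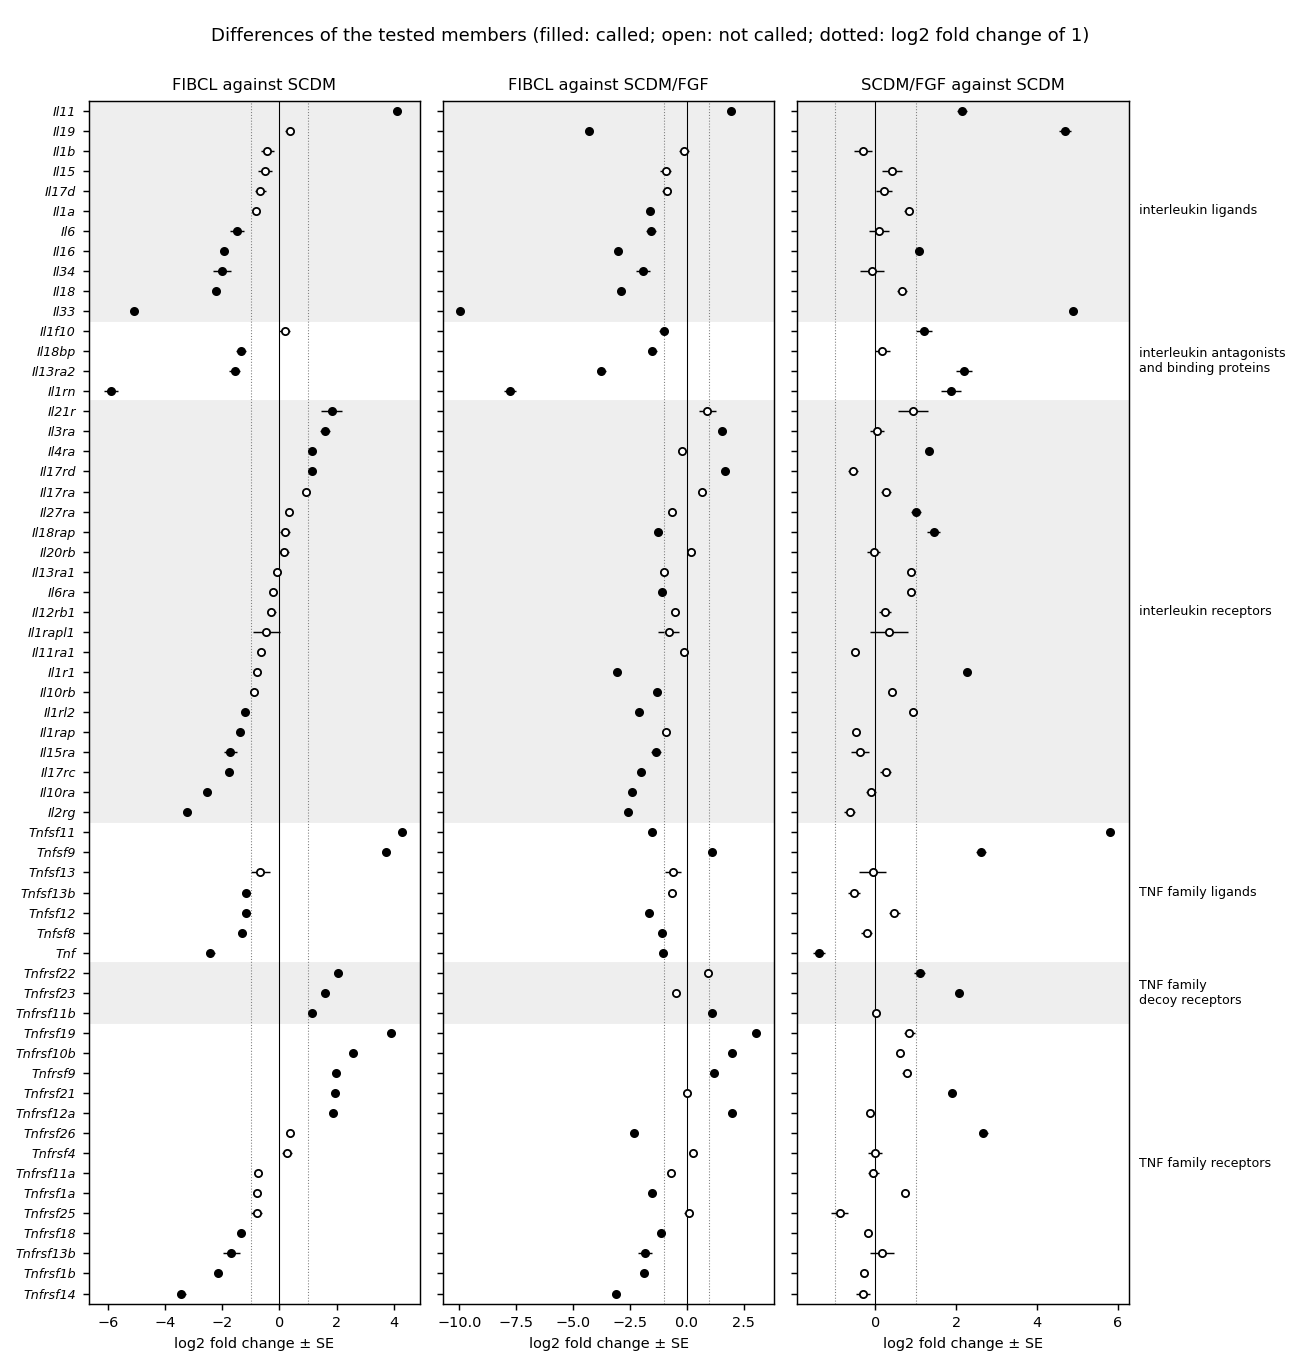
Log2 fold change with its SE for the 60 tested members in 3 comparisons, ordered within each role by the difference between FIBCL and SCDM. Filled points were called and open points were not, dotted lines mark a log2 fold change of 1 in either direction, and the horizontal scale differs between panels. Decoy receptors of the TNF family are all higher in FIBCL than in SCDM, and in the SCDM/FGF panel the sole called point to the left of 0 is Tnf.

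TNF family ligands moved in both directions. Of the 7 tested, 2 were higher and 4 lower in FIBCL than in SCDM, and 1 higher and 4 lower than in SCDM/FGF. These calls are 85.7% and 71.4% of them, where 29.3% and 27.8% of all genes were called. Tnfsf11 encodes RANKL, the ligand that drives osteoclast formation and whose soluble decoy is osteoprotegerin, and lies on chr14:78277445-78308043 (GRCm38, minus strand). It stood at 7.73, 9.604 and 7.903 scaled TPM in the spheres, 0.580, 0.588 and 0.585 in SCDM, 91.6, 86.2 and 86.6 in SCDM/FGF, and 31.5, 27.7 and 31.9 in FIBCL. No groups overlapped, and the order was SCDM, spheres, FIBCL and SCDM/FGF. Tnfsf11 was higher in FIBCL than in SCDM (log2 fold change 4.30 ± 0.083, limma adjusted p = 3.38e-12) and the spheres (1.74 ± 0.083, adjusted p = 5.12e-09) but lower than in SCDM/FGF (-1.51 ± 0.083, adjusted p = 1.67e-08). Its rise with bFGF over SCDM was the largest of any member (log2 fold change 5.81 ± 0.083, limma adjusted p = 4.93e-12), and it was lower in SCDM than in the spheres (-2.57 ± 0.083, adjusted p = 1.07e-09).

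Tnfsf9, a costimulatory ligand for T cells, had 3.31, 2.68 and 2.32 scaled TPM in the spheres, 2.45, 2.15 and 3.43 in SCDM, 20.97, 20.4 and 22.3 in SCDM/FGF, and 50.6, 42.1 and 48.8 in FIBCL. Spheres and SCDM overlapped at low levels, and SCDM/FGF and FIBCL lay above them. Tnfsf9 was higher in FIBCL than in SCDM (log2 fold change 3.72 ± 0.13, limma adjusted p = 4.18e-10), SCDM/FGF (1.11 ± 0.13, adjusted p = 1.55e-05) and the spheres (3.68 ± 0.13, adjusted p = 5.2e-10), and bFGF raised it (2.61 ± 0.13, adjusted p = 3.46e-08). Without rescaling the difference between FIBCL and SCDM/FGF was 0.80 and was not called. Tnf, the founding inflammatory cytokine of the family and typical of macrophages, had 0.609, 1.14 and 0.822 scaled TPM in the spheres, 7.16, 8.67 and 10.00 in SCDM, 2.65, 3.23 and 2.07 in SCDM/FGF, and 0.908, 0.676 and 0.774 in FIBCL. It rose from the spheres to SCDM (log2 fold change 2.37 ± 0.16, limma adjusted p = 2.45e-07) and was the sole member that bFGF lowered (-1.40 ± 0.16, adjusted p = 2.22e-05). FIBCL was lower than SCDM (log2 fold change -2.42 ± 0.16, limma adjusted p = 6.39e-08) and overlapped with the spheres, and its call against SCDM/FGF (-1.02) was lost without SCDM/FGF replicate 2 (-0.91) or FIBCL replicate 2 (-0.98). In SCDM/FGF against SCDM, 3 of the 17 macrophage markers were lower (Adgre1 -1.20, Aif1 -1.27 and Cx3cr1 -1.31) and 1 was higher (Mrc1 1.19). The others were not called, and the median of the list was -0.05. Its sum was 2581 to 2783 scaled TPM in SCDM/FGF and 2350.1 to 2576 in SCDM. The part of macrophages in the fall of Tnf was not tested.

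Tnfsf12 encodes TWEAK, which acts on Tnfrsf12a, and had 15.97, 19.7 and 16.1 scaled TPM in the spheres, 19.6, 17.7 and 13.9 in SCDM, 26.4, 22.7 and 22.4 in SCDM/FGF, and 6.19, 8.14 and 6.69 in FIBCL. Tnfsf12 was lower in FIBCL than in SCDM (log2 fold change -1.17 ± 0.14, limma adjusted p = 1.05e-05), SCDM/FGF (-1.64 ± 0.14, adjusted p = 6e-07) and the spheres (-1.19 ± 0.14, adjusted p = 9.58e-06). Tnfsf13, or APRIL, a B cell factor, had 4.98, 4.65 and 5.29 scaled TPM in the spheres, 1.02, 0.243 and 1.77 in SCDM, 0.998, 0.111 and 1.75 in SCDM/FGF, and 0, 0.172 and 0.499 in FIBCL. Tnfsf13 was lower than in the spheres in SCDM (log2 fold change -1.64 ± 0.34, limma adjusted p = 0.00175), SCDM/FGF (-1.71 ± 0.34, adjusted p = 0.00138) and FIBCL (-2.31 ± 0.34, adjusted p = 7.82e-05). Both lie within 13.0 kb on chromosome 11 and overlap the read-through gene Tnfsfm13, so that reads may be split between them. Tnfsf13b, or BAFF, had 0.516, 0.367 and 0.889 scaled TPM in the spheres, 1.74, 1.46 and 1.58 in SCDM, 1.06, 0.755 and 0.619 in SCDM/FGF, and 0.0836, 0.295 and 0.131 in FIBCL, and was lower in FIBCL than in SCDM (log2 fold change -1.15 ± 0.14, limma adjusted p = 1.9e-05). Tnfsf8, the ligand of Tnfrsf8, had 0.245, 0.0699 and 0.159 scaled TPM in the spheres, 1.16, 2.16 and 1.39 in SCDM, 1.09, 1.28 and 1.18 in SCDM/FGF, and 0, 0.0246 and 0.0394 in FIBCL. Tnfsf8 was lower in FIBCL than in SCDM (log2 fold change -1.31 ± 0.14, limma adjusted p = 4.43e-06) and SCDM/FGF (-1.09 ± 0.14, adjusted p = 2.23e-05), and higher in SCDM than in the spheres (1.13 ± 0.14, adjusted p = 3.53e-05), a difference of 0.97 and not called without SCDM replicate 2.

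The 3 decoy receptors of the TNF family were all higher in FIBCL than in SCDM and than in the spheres, and 1 of them was higher than in SCDM/FGF. Of all genes, 13.2%, 12.5% and 12% were called higher in these comparisons in turn. Tnfrsf11b encodes osteoprotegerin, which captures RANKL, and lies on chr15:54250619-54278484 (GRCm38, minus strand). It stood at 34.4, 37.04 and 36.6 scaled TPM in the spheres, 77.3, 88.02 and 84.2 in SCDM, 91.2, 88.4 and 74.5 in SCDM/FGF, and 191, 187 and 175 in FIBCL. The FIBCL libraries lay above all others. Tnfrsf11b was higher in FIBCL than in SCDM (log2 fold change 1.14 ± 0.076, limma adjusted p = 8.46e-08), SCDM/FGF (1.12 ± 0.076, adjusted p = 1.08e-07) and the spheres (2.32 ± 0.076, adjusted p = 2.15e-10), where without rescaling the first and second of these were 0.74 and 0.80 and not called. SCDM (log2 fold change 1.18 ± 0.076, limma adjusted p = 1.96e-07) and SCDM/FGF (1.21 ± 0.076, adjusted p = 1.84e-07) also exceeded the spheres, the latter by 0.98 and not called without rescaling.

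Tnfrsf22 and Tnfrsf23 encode mouse decoy receptors for the death ligand TRAIL. With Tnfrsf26 they form a cluster of 3 genes on chromosome 7 (143607659 to 143685872), where the antisense-oriented gene E230032D23Rik overlaps all of them, and as close copies they may share reads. Tnfrsf22 had 14.4, 12.9 and 17.4 scaled TPM in the spheres, 10.2, 9.25 and 9.37 in SCDM, 20.95, 23.9 and 20.5 in SCDM/FGF, and 42.3, 35.8 and 52.7 in FIBCL. Tnfrsf23 had 23.1, 23.8 and 25.4 scaled TPM in the spheres, 18.7, 20.7 and 17.3 in SCDM, 78.6, 79.4 and 88.96 in SCDM/FGF, and 59.4, 57.6 and 60.8 in FIBCL. Both were lowest in SCDM, without overlap with any other group. FIBCL exceeded SCDM for Tnfrsf22 (log2 fold change 2.05 ± 0.13, limma adjusted p = 7.41e-08) and Tnfrsf23 (1.60 ± 0.070, adjusted p = 2.1e-09), and bFGF raised Tnfrsf22 (1.10 ± 0.13, adjusted p = 4.63e-05) and Tnfrsf23 (2.07 ± 0.070, adjusted p = 1.31e-09) over SCDM. Against the spheres they were higher in FIBCL by 1.48 and 1.26 on the log2 scale, but by 0.95 and 0.73 and not called without rescaling. Against SCDM/FGF neither was called in FIBCL, with log2 fold changes of 0.95 for Tnfrsf22 and -0.47 for Tnfrsf23. The third gene of the cluster, Tnfrsf26, had 4.32, 3.54 and 3.24 scaled TPM in the spheres, 1.19, 1.69 and 1.604 in SCDM, 14.1, 13.9 and 16.6 in SCDM/FGF, and 2.03, 2.24 and 2.36 in FIBCL. It was not called between FIBCL and SCDM (0.37 ± 0.12), rose with bFGF (log2 fold change 2.67 ± 0.12, limma adjusted p = 1.13e-08) and was lower in FIBCL than in SCDM/FGF (-2.30 ± 0.12, adjusted p = 1e-08).

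Among the 14 other tested receptors of the TNF family, 5 were higher and 4 lower in FIBCL than in SCDM, 4 higher and 6 lower than in SCDM/FGF, and 4 higher and 4 lower than in the spheres. These calls are 64.3%, 71.4% and 57.1% of them, where 29.3%, 27.8% and 28.1% of all genes were called. The higher ones include Tnfrsf9, which passed the limit on low values through FIBCL alone, so that this direction was built into its choice. Tnfrsf12a encodes Fn14, the TWEAK receptor that injured tissue induces, and had the highest level of any member in FIBCL. It lies on chr17:23675445-23677468 (GRCm38, minus strand) and stood at 99.1, 100.1 and 90.3 scaled TPM in the spheres, 150.0, 156 and 146 in SCDM, 128, 146 and 139.7 in SCDM/FGF, and 545, 567 and 551 in FIBCL. The FIBCL libraries differed by little among themselves and lay above all others. Tnfrsf12a was higher in FIBCL than in SCDM (log2 fold change 1.87 ± 0.055, limma adjusted p = 8.51e-11), SCDM/FGF (2.00 ± 0.055, adjusted p = 5.53e-11) and the spheres (2.51 ± 0.055, adjusted p = 1.04e-11).

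Tnfrsf10b, the death receptor for TRAIL in the mouse, lies on chr14:69767472-69784411 (GRCm38, plus strand) and had 13.2, 13.7 and 12.6 scaled TPM in the spheres, 12.1, 12.99 and 12.1 in SCDM, 19.8, 19.3 and 18.8 in SCDM/FGF, and 79.9, 82.1 and 76.8 in FIBCL. Tnfrsf10b was higher in FIBCL than in SCDM (log2 fold change 2.59 ± 0.052, limma adjusted p = 4.62e-12), SCDM/FGF (1.99 ± 0.052, adjusted p = 3.48e-11) and the spheres (2.51 ± 0.052, adjusted p = 6.18e-12), while its ligand gene Tnfsf10 reached at most 0.880 scaled TPM in any library. Tnfrsf19, or TROY, an orphan receptor of the developing nervous system, had 9.59, 11.5 and 10.7 scaled TPM in the spheres, 1.38, 1.32 and 2.18 in SCDM, 4.14, 3.69 and 3.22 in SCDM/FGF, and 38.4, 42.4 and 32.9 in FIBCL. No groups overlapped, and the order was SCDM, SCDM/FGF, spheres and FIBCL. Tnfrsf19 was higher in FIBCL than in SCDM (log2 fold change 3.89 ± 0.14, limma adjusted p = 4.1e-10), SCDM/FGF (3.05 ± 0.14, adjusted p = 3.44e-09) and the spheres (1.74 ± 0.14, adjusted p = 4.7e-07), and lower in SCDM (-2.16 ± 0.14, adjusted p = 2.13e-07) and SCDM/FGF (-1.31 ± 0.14, adjusted p = 1.3e-05) than in the spheres.

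Tnfrsf21, or DR6, a death domain receptor studied in axon pruning, had 26.9, 29.4 and 28.6 scaled TPM in the spheres, 6.52, 7.01 and 7.39 in SCDM, 29.8, 25.2 and 31.7 in SCDM/FGF, and 29.7, 29.3 and 29.4 in FIBCL. SCDM lay below every other group, and the other 3 groups overlapped. Tnfrsf21 was lower in SCDM than in the spheres (log2 fold change -1.88 ± 0.079, limma adjusted p = 7.27e-09), and higher than in SCDM in SCDM/FGF (1.90 ± 0.079, adjusted p = 6.17e-09) and FIBCL (1.93 ± 0.079, adjusted p = 1.26e-09). Tnfrsf9, the receptor of Tnfsf9, had 0.228, 0.0786 and 0.285 scaled TPM in the spheres, 0.0761, 0.140 and 0 in SCDM, 0.734, 0.976 and 0.792 in SCDM/FGF, and 3.25, 3.198 and 3.27 in FIBCL. Tnfrsf9 was higher in FIBCL than in SCDM (log2 fold change 1.99 ± 0.10, limma adjusted p = 1.14e-08), SCDM/FGF (1.21 ± 0.10, adjusted p = 9.12e-07) and the spheres (1.83 ± 0.10, adjusted p = 2.55e-08), and it reached 1 TPM in FIBCL alone. Without rescaling the difference from SCDM/FGF was 0.98 and was not called.

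**Figure D5:**
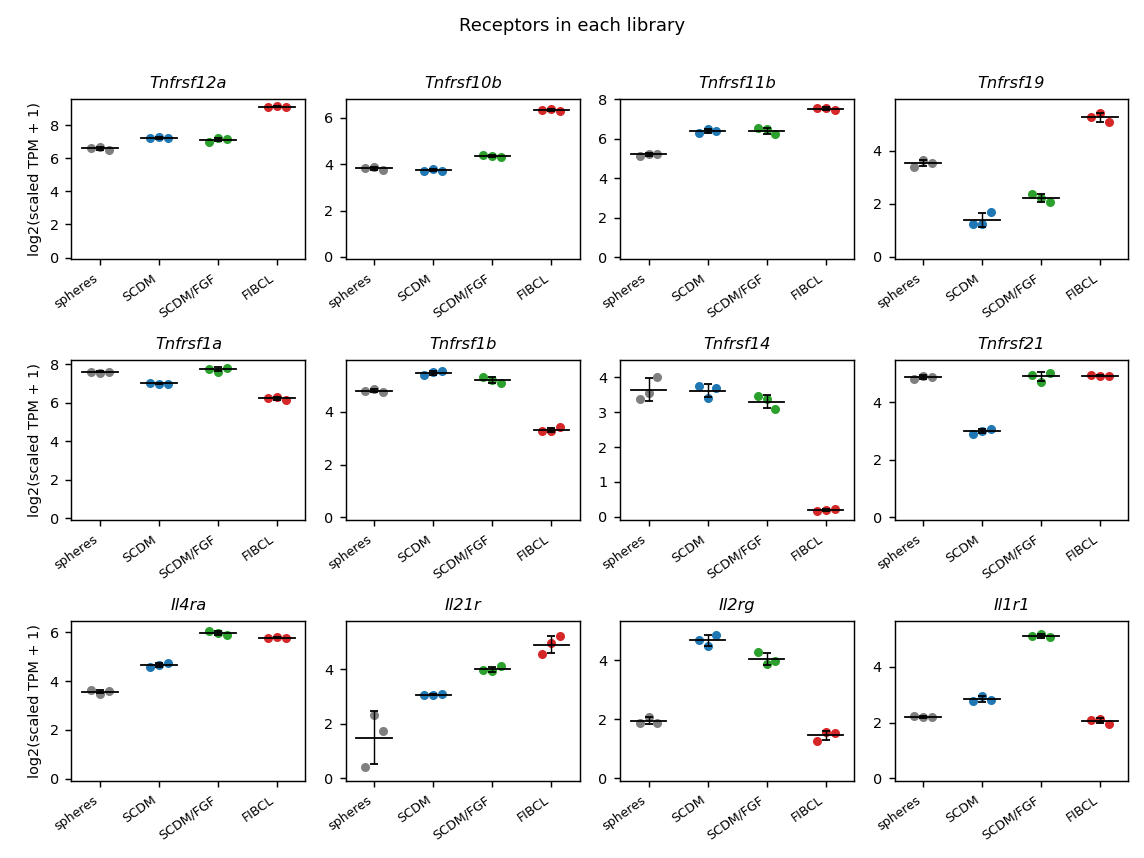
Receptors of both families in the 12 libraries on the log2(scaled TPM + 1) scale, drawn as for the ligands with 1 point per library, group means and SD (n = 3). Tnfrsf12a, Tnfrsf10b, Tnfrsf11b and Tnfrsf19 are highest in FIBCL, Tnfrsf1b and Tnfrsf14 lowest there, Tnfrsf21 is low in SCDM alone, and Il2rg is high in both control media.

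The receptors of TNF itself fell or did not pass. Tnfrsf1a, the widely expressed death domain receptor, had 195, 188 and 195 scaled TPM in the spheres, 130.1, 124 and 125 in SCDM, 216, 194 and 223 in SCDM/FGF, and 74.9, 76.1 and 69.3 in FIBCL. FIBCL was lower than SCDM/FGF (log2 fold change -1.51 ± 0.054, limma adjusted p = 4.29e-10) and the spheres (-1.38 ± 0.054, adjusted p = 9.6e-10), and its difference from SCDM was -0.78 ± 0.054, which became -1.17 and called without rescaling. Tnfrsf1b, the second TNF receptor and frequent on leukocytes, had 26.7, 28.2 and 25.7 scaled TPM in the spheres, 40.8, 44.1 and 44.99 in SCDM, 38.2, 35.6 and 32.7 in SCDM/FGF, and 8.699, 8.73 and 9.62 in FIBCL. Tnfrsf1b was lower in FIBCL than in SCDM (log2 fold change -2.14 ± 0.069, limma adjusted p = 1.63e-10), SCDM/FGF (-1.86 ± 0.069, adjusted p = 5.4e-10) and the spheres (-1.48 ± 0.069, adjusted p = 4.17e-09).

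Tnfrsf14, or HVEM, a switch of lymphocyte activity, had the deepest fall of the TNF receptors, with 9.39, 10.6 and 15.1 scaled TPM in the spheres, 12.4, 9.52 and 11.9 in SCDM, 9.96, 9.37 and 7.48 in SCDM/FGF, and 0.119, 0.135 and 0.157 in FIBCL. All FIBCL libraries lay under 0.16 scaled TPM and all others above 7. Tnfrsf14 was lower in FIBCL than in SCDM (log2 fold change -3.43 ± 0.16, limma adjusted p = 4.49e-09), SCDM/FGF (-3.12 ± 0.16, adjusted p = 1.08e-08) and the spheres (-3.46 ± 0.16, adjusted p = 4.59e-09). Tnfrsf18, or GITR, known from regulatory T cells, had 4.898, 4.54 and 4.74 scaled TPM in the spheres, 3.66, 3.87 and 4.24 in SCDM, 3.27, 3.32 and 3.31 in SCDM/FGF, and 1.03, 0.873 and 0.997 in FIBCL, and fell in FIBCL with log2 fold changes of -1.32, -1.13 and -1.54 against SCDM, SCDM/FGF and the spheres (SE 0.083 each). Its neighbour Tnfrsf4, or OX40, which lies with it in a stretch of 15.1 kb on chromosome 4, lay between 1.17 and 2.77 and was called in no comparison.

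Tnfrsf13b, or TACI, a receptor of BAFF and APRIL, had 0.0508, 0.428 and 0.445 scaled TPM in the spheres, 3.91, 5.54 and 4.67 in SCDM, 6.04, 5.21 and 4.78 in SCDM/FGF, and 0.323, 0.307 and 2.17 in FIBCL. Tnfrsf13b was higher in SCDM (log2 fold change 2.13 ± 0.30, limma adjusted p = 0.000105) and SCDM/FGF (2.29 ± 0.30, adjusted p = 6.24e-05) than in the spheres and lower in FIBCL than in SCDM (-1.69 ± 0.30, adjusted p = 0.000321) and SCDM/FGF (-1.84 ± 0.30, adjusted p = 0.000169), and FIBCL replicate 3 lay above the other FIBCL libraries. Tnfrsf11a, which encodes RANK, had 0.753, 0.541 and 0.579 scaled TPM in the spheres, 2.16, 2.75 and 2.67 in SCDM, 2.44, 2.26 and 2.497 in SCDM/FGF, and 1.11, 0.799 and 1.47 in FIBCL. Tnfrsf11a was higher in SCDM (log2 fold change 1.12 ± 0.13, limma adjusted p = 2.21e-05) and SCDM/FGF (1.07 ± 0.13, adjusted p = 3.33e-05) than in the spheres and was not called between FIBCL and either control medium. Without rescaling its difference between SCDM/FGF and the spheres was 0.97 and was not called. Tnfrsf25, the receptor of Tnfsf15, had 1.26, 2.54 and 1.300 scaled TPM in the spheres, 1.64, 1.31 and 1.16 in SCDM, 0.196, 0.342 and 0.315 in SCDM/FGF, and 0.478, 0.652 and 0.0262 in FIBCL. Its sole call was a lower level in SCDM/FGF than in the spheres (log2 fold change -1.04 ± 0.21, limma adjusted p = 0.00141), lost without spheres replicate 2 (-0.83) or SCDM/FGF replicate 1 (-0.99).

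Set side by side, ligand and receptor genes of some pairs went the same way and those of others did not. The values here are log2 fold changes of FIBCL against SCDM. TWEAK fell (Tnfsf12, -1.17) and its receptor rose (Tnfrsf12a, 1.87). RANKL (Tnfsf11, 4.30) and its decoy (Tnfrsf11b, 1.14, or 0.74 and not called without rescaling) both rose, though RANKL was lower than in SCDM/FGF (-1.51), while the log2 fold change of RANK was -0.74 and not called. Tnfsf9 and Tnfrsf9 were both higher (3.72 and 1.99), but Tnfrsf9 passed the limit on low values through FIBCL alone. Its direction was thus built into its choice and says nothing of the pair. TNF fell (Tnf, -2.42) with its second receptor (Tnfrsf1b, -2.14), and IL-15 was not called (Il15, -0.52) while Il15ra fell (-1.72). Il33 fell (-5.07) with the accessory chain Il1rap (-1.39), where the IL-33 receptor Il1rl1 lay under the limit on low values.

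Genes of the signalling routes downstream were read from lists of textbook components. In the list of 34 genes of IL-1, TNF and NF-kB signal transduction, all tested, 0 were higher and 6 lower in FIBCL than in SCDM, and 0 higher and 9 lower than in SCDM/FGF, with median log2 fold changes of -0.38 and -0.37 (-0.07 and -0.05 over all genes tested). These are 17.6% and 26.5% of the list, below the 29.3% and 27.8% of all genes called, and near or above the 16.1% and 15.8% called lower. Against the spheres 0 were higher and 4 lower (11.8%, background 28.1%). The 5 genes of this list called against both control media were Myd88, the adaptor of IL-1 receptors (-1.23 and -1.55), Traf5, a TNF receptor adaptor (-1.94 and -1.73), Casp8, the initiator caspase of death receptors (-1.36 and -1.55), and the NF-kB inhibitors Tnfaip3 (-1.60 and -1.46) and Nfkbie (-1.27 and -1.21). Myd88 had 23.2, 20.7 and 22.4 scaled TPM in the spheres, 31.05, 32.3 and 32.2 in SCDM, 40.6, 41.9 and 37.6 in SCDM/FGF, and 12.97, 13.2 and 13.00 in FIBCL. Its FIBCL libraries lay below those of every other group.

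The inflammasome list, whose products cut and release IL-1 and IL-18, had 7 of 9 genes tested. Of these, 0 were higher and 6 lower in FIBCL than in SCDM (median -2.04), and 0 higher and 5 lower than in SCDM/FGF (median -1.75), where 29.3% and 27.8% of all genes were called. Against the spheres 1 was higher and 3 were lower (median -0.97), beside a background of 28.1%. Casp1, the protease that matures both cytokines, had 2.39, 1.76 and 2.25 scaled TPM in the spheres, 4.64, 6.19 and 6.85 in SCDM, 4.89, 4.23 and 3.98 in SCDM/FGF, and 0.597, 0.455 and 0.748 in FIBCL. Gsdmd, which forms the release pore, had 18.2, 20.7 and 18.2 scaled TPM in the spheres, 18.7, 20.7 and 20.9 in SCDM, 27.5, 31.9 and 23.4 in SCDM/FGF, and 1.84, 1.46 and 1.102 in FIBCL. Casp1 was lower in FIBCL than in SCDM (log2 fold change -2.10 ± 0.14, limma adjusted p = 9.36e-08) and SCDM/FGF (-1.75 ± 0.14, adjusted p = 5.02e-07), as was Gsdmd (-3.10 ± 0.13, adjusted p = 1.26e-09 and -3.53 ± 0.13, adjusted p = 4.43e-10). Casp4 (-2.04 and -3.42), Pycard (-2.70 and -2.70) and Nlrp1b (-1.03 and -1.22) were also called against both media. Macrophage markers were lower in FIBCL than in SCDM for 15 of 17 genes, and higher in SCDM than in the spheres for 16. Of the 7 tested genes of this list, 3 were higher in SCDM than in the spheres, while Gsdmd and Casp4 overlapped between these groups. Casp4 stood at 37.3, 37.0 and 37.5 scaled TPM in the spheres and 31.7, 34.5 and 43.1 in SCDM. All 7 fibroblast markers were lower in FIBCL than in SCDM, SCDM/FGF and the spheres. Of the 8 cochlear glia markers 7, 8 and 8 were lower in turn. The part of macrophages, fibroblasts and glia in the counts was not tested.

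Among the JAK and STAT genes, which carry the signal of receptors without a kinase of their own, Stat6 transduces IL-4 and IL-13. Stat6 had 41.2, 36.5 and 35.2 scaled TPM in the spheres, 39.9, 40.7 and 39.00 in SCDM, 38.4, 36.7 and 34.2 in SCDM/FGF, and 16.5, 17.2 and 14.9 in FIBCL. Its FIBCL libraries lay below those of every other group. Stat6 was lower in FIBCL than in SCDM (log2 fold change -1.25 ± 0.071, limma adjusted p = 2.08e-08) and SCDM/FGF (-1.12 ± 0.071, adjusted p = 5.74e-08), while Il4ra was higher there than in SCDM. Stat5a, named here after its value was seen, was higher in FIBCL than in SCDM (log2 fold change 1.12 ± 0.089, limma adjusted p = 4.25e-07). It was not called between FIBCL and SCDM/FGF, whose libraries overlapped. They stood at 26.8, 26.9 and 29.7 scaled TPM in FIBCL and 26.1, 28.0 and 26.9 in SCDM/FGF.

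Position on the chromosome, which the choice of members did not use, set 55 of the 113 members with a GENCODE M21 position in 20 groups of neighbours that lay at most 1 Mb apart. In the IL-1 cytokine cluster on chromosome 2 (24153161 to 24351494), which holds Il1f8, Il1f9, Il1f6, Il1f5, Il1f10 and Il1rn, Il1rn exceeded 100 scaled TPM outside FIBCL, and Il1f10 at 1.604 was the highest of the other 5. In the receptor cluster on chromosome 1 (40074079 to 40551705), Il1r1, Il1rl2 and Il18rap were tested, and Il1r2, the decoy receptor of IL-1, reached 0.402, Il1rl1 2.03 and Il18r1 0.0873. In the cluster of Il4, Il13, Il5 and Il3 on chromosome 11 (53602982 to 54267277), which is typical of T helper cells and mast cells, no gene passed the limit on low values and the highest library stood at 0.195.

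Most interleukin ligands stayed under the limit on low values. Of 36 such genes 25 were not tested, as were 17 of the 38 interleukin receptor rows. Next to Il1rl1, the highest were Il17c (1.17 scaled TPM in FIBCL replicate 3) and Il7r (1.05). The 8 listed at 0 in all 12 libraries were Il3, Il9, Il17a, Il20, Il24, Il31, Il1f5 and Il1f6. The depth of the libraries is unknown, so no limit can be set on the levels of these genes.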

How the data were processed

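RNA was sequenced from 12 libraries of 4 groups (3 each, grouped by the labels) after poly(A) selection. SeqPrep and Sickle (trimming), TopHat (alignment) and RSEM (gene levels) were run by the authors, the submitters' processing notes also name Cufflinks, and the authors deposited TPM with 2 decimals for 55487 genes. The alignment is described as run in an orientation mode, while the genome build and any use of strand in counting are not given in the sources used here, and since TPM keeps no read counts, the depth of the libraries is unknown and no interval or floor is given. Libraries were brought to a common scale by a mean of log2 ratios trimmed by 30% at each end, taken over the 8434 genes that reached 5 TPM throughout, and tested as log2(scaled TPM + 1), which understates changes of low genes. Genes that reached 1 TPM in 3 or more libraries (16016) were fitted with limma 3.58.1 (R 4.3.3, trend) in one model of 4 groups with 6 comparisons, and p-values were adjusted by Benjamini-Hochberg over all of them. They measure the spread between libraries of pooled animals.

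Values in every library were given for members called in at least 1 comparison or with a group mean of at least 5 TPM, and other members by counts and ranges. Genes of the signal lists, apart from Stat5a, were named where called between FIBCL and both control media. For the JAK and STAT list no counts are given, and not every gene that this rule names is reported here. The members, roles and lists were chosen with earlier results of these data known, and marker and signal lists hold textbook genes. Gene positions are from GENCODE M21 and promoters from RefSeq (GRCm38.p6). The steps were tested on simulated data. Python 3.11.15 with pandas 2.3.3 was used for tables, and matplotlib 3.10.9 for figures.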

Additional observations from a re-analysis of the deposited data

How the results depend on the processing

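Counts of called members were computed again without rescaling, with median scaling, with a pseudocount of 0.1, with every gene above 0 or with at least 5 TPM in 3 libraries, with a log2 fold limit of 1.5, by adjusted p alone, from the 2 groups compared only, with a replicate block, and without each library. The counts for FIBCL against SCDM, SCDM/FGF and the spheres stayed within 1.5 times of 37, 39 and 29 under each of these. SCDM against the spheres, with 17 members, gave 10 at the fold limit of 1.5, 41 by adjusted p alone and 27 with the pseudocount of 0.1. SCDM/FGF against the spheres, with 26, gave 17 and 46, and SCDM/FGF against SCDM, with 18, gave 11 and 36, at the fold limit of 1.5 and by adjusted p alone. The fold limit and adjusted p alone change the rule itself, and a smaller pseudocount enlarges the fold changes of low genes. Leaving out each library in turn gave 37 to 37, 38 to 41, 29 to 30, 17 to 18, 26 to 27 and 17 to 18 calls in the 6 comparisons. Without rescaling the median of all genes between FIBCL and SCDM moved from -0.07 to -0.40 and 12 members were called higher and 26 lower. The difference of Il1f10 between FIBCL and SCDM (0.18) turned to -0.09 (limma adjusted p = 0.586) without FIBCL replicate 1 and was 0.32 without FIBCL replicate 2. Il1f10 stood at 0.765 scaled TPM in FIBCL replicate 1 and at 0 in the other FIBCL libraries, so that its FIBCL mean rested on that library. Of 704 values of 55 single members between FIBCL and SCDM, 690 kept their direction and their side of the limits. These cover each setting above except the fold limit of 1.5 and adjusted p alone, and leave out SCDM and FIBCL libraries only.

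The replicate numbers did not clearly pair the libraries. Deviations of libraries with the same number correlated at -0.121 to 0.098 over 18 pairs, against -0.073 to 0.12 over 36 pairs with other numbers. For 6 of 12 libraries the best-correlated library of another group had the same number. With 3 libraries per group, these values cannot exclude pairing. With the replicate block the counts were 37, 39, 29, 17, 26 and 18. The unknown depth limits what can be said of members under 1 TPM.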

Other observations

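Markers of lymphocytes and mast cells were scarce, and the genes named here were chosen after their values were seen. Of the 7 T cell markers 2 passed the limit on low values, Cd4 and Lck, and both were lower in FIBCL than in SCDM (log2 fold change -2.68 and -1.33). Cd4 encodes the protein that the product of Il16 binds. Of the 5 B cell markers 1 passed, Cd79b, and it was lower there as well (-1.81). Of the 6 mast cell markers 0 passed. Of the 6 neutrophil markers 2 passed, and of these Camp was lower in FIBCL than in SCDM (-4.95) while S100a8 was not called (0.75, limma adjusted p = 0.0638).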
